A study of Mus musculus with 6 samples.

Results

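Surfactant and lamellar body genes were followed across the cell classes of the developing mouse lung. They were Sftpa1, Sftpb, Sftpc, Sftpd, Napsa, Abca3, Lamp3, Slc34a2, Lpcat1 and Etv5, which is 10 of the 32285 genes counted, and each was found by its symbol. All 10 had counts in every library. Lungs of wild-type C57BL/6N mice were dissociated, live cells were sorted, and their RNA was counted cell by cell as unique molecular identifiers (UMIs) with 10x Genomics 3-prime chemistry. The 6 libraries covered room air (21% oxygen) at postnatal day 1, room air at day 21 and hyperoxia at day 21, each with a library of females and a library of males. For hyperoxia the pups breathed 95% oxygen between day 1 and day 5, then room air. Each library pooled the lungs of 3 mice of 1 sex, so no combination of sex, age and treatment was replicated, and the spread in every test came from such pools, not from single animals.

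Pulmonary surfactant is the film of phospholipid and protein that lowers surface tension at the air-liquid border of the alveolus. Type 2 alveolar epithelial cells make it, assemble it in lysosome-related organelles called lamellar bodies, and secrete it, while alveolar macrophages and the type 2 cells themselves take it up again. Its production rises before birth, and loss of SP-B or of the lipid transporter ABCA3 is known to cause fatal respiratory failure in newborns.

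The genes fall into 4 roles. Sftpb and Sftpc encode SP-B and SP-C, the small hydrophobic proteins that spread the lipid film, and Sftpa1 and Sftpd encode SP-A and SP-D, the collectins that bind microbes and surfactant lipid. Napsa encodes napsin A, an aspartic protease that cleaves the SP-B precursor. Abca3 (lipid import into the lamellar body), Lamp3 (a membrane protein of that organelle), Lpcat1 (an acyltransferase that makes saturated phosphatidylcholine) and Slc34a2 (a sodium-phosphate cotransporter of the type 2 cell surface) serve the lipid side. Etv5 is an ETS transcription factor downstream of FGF receptors that maintains type 2 cells. In GENCODE M21 (GRCm38) all 10 are protein-coding genes. Sftpa1 (chr14:41131782-41136452) and Sftpd (chr14:41172214-41185149) lie 35761 bases apart, while Sftpc lies at chr14:70520949-70524081 and Sftpb at chr6:72304610-72314371. Abca3 (chr17:24351950-24410201), Lamp3 (chr16:19653378-19706375) and Etv5 (chr16:22381309-22439719) each span over 50 kb. Napsa lies at chr7:44572380-44586862, Slc34a2 at chr5:53038081-53071664 and Lpcat1 at chr13:73467197-73516422.

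Sequence upstream of the start site is shown for 5 of these genes, because they divided into genes that were counted outside type 2 cells at the level of free RNA of type 2 cells (Sftpa1, Sftpb, Lamp3) and genes counted there well above it (Abca3, Lpcat1). The stretches come from RefSeq promoters of GRCm38.p6, which matched 7 of the 10 genes, and run 5′ to 3′ on the gene's strand up to the first base that GENCODE gives to an exon. Capitals mark CpG dinucleotides.
Sftpa1, chr14:41131638-41131781, plus strand: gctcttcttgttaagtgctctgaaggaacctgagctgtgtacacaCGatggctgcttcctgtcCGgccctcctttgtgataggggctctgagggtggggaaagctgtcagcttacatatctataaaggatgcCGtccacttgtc
Sftpb, chr6:72304460-72304609, plus strand: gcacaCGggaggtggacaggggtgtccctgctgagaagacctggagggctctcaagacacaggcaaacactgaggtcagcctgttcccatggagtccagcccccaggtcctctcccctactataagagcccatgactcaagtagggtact
Lamp3, chr16:19706376-19706515, minus strand: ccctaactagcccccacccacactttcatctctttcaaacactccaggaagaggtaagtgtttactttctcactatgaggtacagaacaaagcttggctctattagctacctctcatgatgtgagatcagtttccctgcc
Abca3, chr17:24351873-24351949, plus strand: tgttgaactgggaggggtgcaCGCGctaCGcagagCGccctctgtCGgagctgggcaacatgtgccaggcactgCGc
Lpcat1, chr13:73467081-73467196, plus strand: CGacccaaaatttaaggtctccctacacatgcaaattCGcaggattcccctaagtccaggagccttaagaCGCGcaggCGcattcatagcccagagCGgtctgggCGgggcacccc

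In the 150 bases before the RefSeq start, Lamp3 held 0, Sftpb 1 and Sftpa1 3 CpG dinucleotides, while Abca3 and Lpcat1 held 12 each. The median over 32851 RefSeq promoters was 4, and 45.7% held 5 or more. Etv5, counted outside type 2 cells as well, held 14 and 20 at its pair of start sites. Slc34a2, which is not among the sequences shown, went the other way. It held 15 CpG dinucleotides, although its counts outside type 2 cells stayed near free RNA. Whether CpG counts go with counts outside type 2 cells was not tested. The motif CAAGTG, bound by NKX2-1, was searched on both strands over 250 bases before the start. It occurred 2 times at Sftpa1 and in 11.6% of all such windows. TGTTTAC, a forkhead motif, occurred at Lamp3 and at 1 start of Etv5, and in 3.17% of all windows. CCGGAAG, an ETS motif, was found at none of the 7 genes, against 6.91% of all windows. A match is a description of letters, not of a bound site.

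Type 2 cells were found first, since most values below rest on them. The authors' classes AT2 and AT2 Lyz1+ held 461 and 1650 cells in the female and male day 1 libraries, 133 and 7 in day 21 room air, and 59 and 84 after hyperoxia. AT2 Lyz1+ made up 407 and 1021 of the day 1 cells and 0 in each day 21 library, so over these classes age sets a mixture of both against AT2 alone. In the male day 1 library, AT2 and AT2 Lyz1+ held 204 and 197 CPM of Etv5, 795 and 767 of Lamp3 and 9437 and 7928 of Sftpa1. In the female one AT2 had 54 cells, of which 83.3% were called doublets. As shares of cells with a class these were 3.99% (exact binomial 95% interval 3.64 to 4.37) and 14.6% (14.0 to 15.3), then 1.56% (1.31 to 1.85) and 0.099% (0.0398 to 0.204), then 0.706% (0.538 to 0.910) and 0.921% (0.735 to 1.14). With 7 cells in male room air, the type 2 classes stayed under the 50 cells set for a test, and fits on them are given as alternatives. The barcodes without a class held further type 2 cells. A rule on 9 type 2 markers that are not among the 10 genes (Cxcl15, Chil1, S100g, Hc, Egfl6, Lgi3, Dram1, Il33 and Muc1) found 1337 and 1923 barcodes at day 1, 254 and 189 in day 21 room air, and 246 and 309 after hyperoxia. These barcodes, from the type 2 classes or without a class, are called the type 2 marker set. It was defined after the data were seen. Close to the rule's cut of 0.5% of UMIs lay 112 and 113 barcodes at day 1, 3 and 1 in day 21 room air, and 0 and 2 after hyperoxia. Of the classed type 2 cells, 343 of 461 and 1551 of 1650 passed the rule at day 1. In day 21 room air 128 of 133 and 7 of 7 passed, and after hyperoxia 57 of 59 and 79 of 84.

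**Figure D1:**
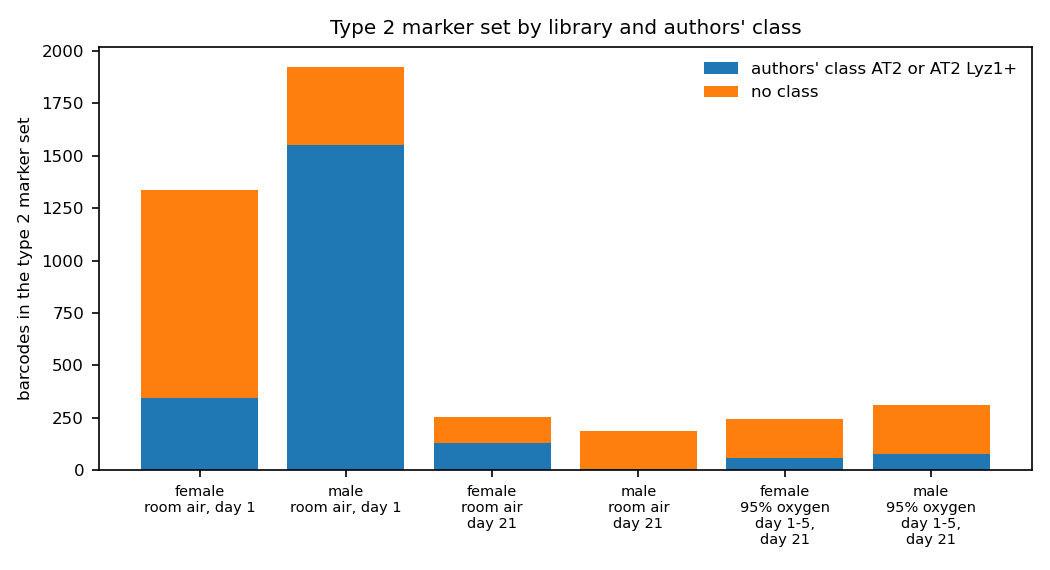
Number of barcodes in the type 2 marker set (vertical axis) in each of the 6 libraries, divided into those with an authors' type 2 class (blue) and those without a class (orange). In male room air at day 21, 182 of the 189 barcodes had no class, while in the male day 1 library 1551 of 1923 had one.

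Of the set, 994 and 372 barcodes had no class at day 1, 126 and 182 in day 21 room air, and 189 and 230 after hyperoxia. Many lay above the UMI range of the classed type 2 cells: in male room air at day 21, 108 of the 182 held more than the 25095 UMIs of the richest classed type 2 cell. Scrublet called 4.76% to 17.8% of the set doublets. In the male day 1 library it called 67.5% of the set's barcodes without a class doublets. In the female day 1 library it called 83.3% of the class AT2 (54 cells) doublets. Xist, present in female cells, was found in 96.8% of the set in the female day 1 library, 92.1% in female room air at day 21 and 65.9% in female hyperoxia, against 0.647% to 2.65% in male libraries. The set made up 8.93% and 13.3% of all barcodes at day 1, 2.32% and 1.79% in day 21 room air, and 2.04% and 2.37% after hyperoxia. The rule itself fixed high type 2 markers and few endothelial, immune and mesenchymal UMIs, so these lists say nothing further of what the set is. Of lists the rule did not use, the neutrophil list (2 genes) held 1181 and 790 CPM at day 1, 387 and 35.1 in day 21 room air, and 146 and 669 after hyperoxia, where CPM is a gene's UMIs scaled to a common total. In the male day 1 barcodes without a class it held 2734 CPM. The migratory dendritic list (Ccr7, Fscn1 and Ccl22) held 110 CPM in female hyperoxia and 2.37 to 9.49 in the other libraries. Over the libraries, which held 122173482 to 163649658 UMIs each, 26 to 62 barcode sequences were shared between pairs.

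The 10 genes together took up 19.1% and 20.1% of all UMIs of the type 2 marker set at day 1, 23.4% and 23.4% in day 21 room air, and 22.9% and 24.6% after hyperoxia. In the authors' type 2 classes the shares were 17.8% and 21.0%, then 24.3% and 23.7%, then 24.0% and 24.9%. Most of that was Sftpc. Levels below are CPM over all UMIs of these cells in a library. A 3-prime UMI counts 1 captured molecule whatever its length, so no length scaling was applied.

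**Figure D2:**
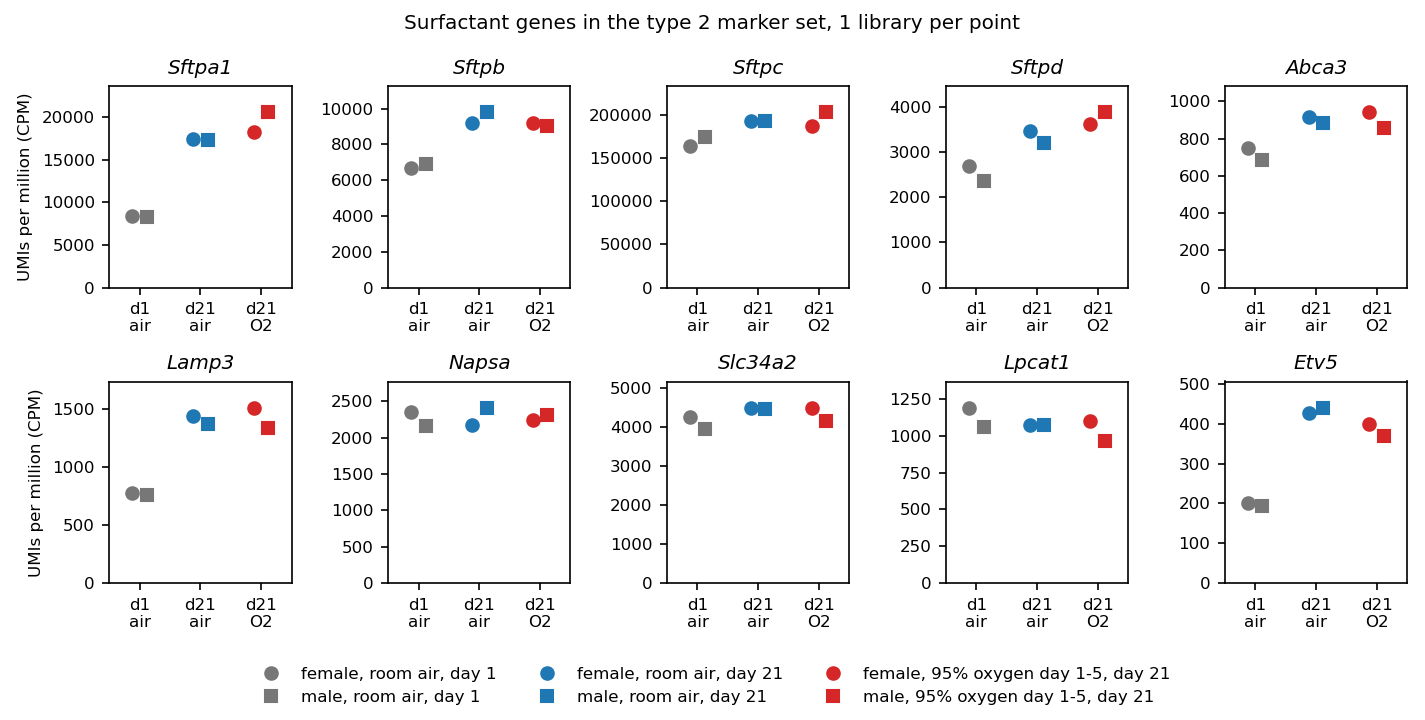
Level of each gene in the type 2 marker set (vertical axes, CPM from 0, a scale for each gene) at day 1 in room air, day 21 in room air and day 21 after hyperoxia. Each point is 1 library (circles female, squares male), and Sftpa1, Lamp3 and Etv5 show the widest gap between day 1 and day 21.

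Among the surfactant proteins, Sftpa1 stood at 8382 and 8291 CPM in the female and male day 1 libraries, 17422 and 17312 in day 21 room air, and 18220 and 20584 after hyperoxia. Both day 1 libraries lay below all 4 libraries of day 21. Sftpd followed a smaller step, from 2698 and 2352 CPM to 3453 and 3189, and 3613 and 3878 after hyperoxia. Sftpb stood at 6666 and 6910 CPM at day 1, 9224 and 9798 in day 21 room air, and 9224 and 9011 after hyperoxia. Sftpc, a marker of the lineage from early development on, already stood at 163778 and 174472 CPM at day 1, against 192956 and 193134 in day 21 room air and 187102 and 202768 after hyperoxia. Its levels at the ages did not overlap, but they differed by a factor of 1.14, against 2.08 for Sftpa1.

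On the lipid side, Lamp3 stood at 771 and 756 CPM at day 1, 1433 and 1367 in day 21 room air, and 1507 and 1331 after hyperoxia. Abca3 stood at 748 and 686, then 915 and 885, then 941 and 859. Slc34a2 moved little, with 4253 and 3933 CPM at day 1, 4488 and 4465 in day 21 room air, and 4478 and 4153 after hyperoxia. Lpcat1 was 1191 and 1058 at day 1, 1072 and 1072 in day 21 room air, and 1098 and 963 after hyperoxia, so its groups overlapped. Napsa, the processing protease, overlapped as well, at 2352 and 2161, 2167 and 2409, and 2246 and 2313. Etv5 was counted at 202 and 193 CPM at day 1, 427 and 440 in day 21 room air and 399 and 368 after hyperoxia. It was the gene with the largest ratio between the ages in room air, 2.19.

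In these CPM, 8 of the 10 genes were higher in both day 21 room air libraries than in both day 1 libraries, while 45.2% of the genes tested did the same. In the authors' type 2 classes it was 9 of 10, against 26.8% of genes. Male room air at day 21 held 7 cells there, too few to count low genes. That share is therefore not a like background for the 10. CPM itself shifted with age: the median gene differed by 0.11 on the log2 scale between the ages before scaling. The test across all genes, which scales by TMM, set that median at -0.02.

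Age was compared in the 4 room air libraries, to ask which surfactant genes differ between the newborn and the weanling lung. With edgeR's quasi-likelihood test and sex as a covariate, 6 of the 10 genes were called in the type 2 marker set at a Benjamini-Hochberg adjusted p under 0.05. Calls with age were common: 56% of the 14067 genes tested were called (28.7% higher and 27.3% lower), so 6 of 10 is near the background. The median log2 change was 0.22 over the 10 genes and -0.02 over all genes. Etv5 rose by 0.99 in log2 units (SE 0.0827, edgeR adjusted p 5.57e-08). Sftpa1 rose by 0.92 (SE 0.0804, edgeR adjusted p 1.01e-07), and Lamp3 by 0.73 (SE 0.0823, edgeR adjusted p 1.72e-06). Each of these 3 was called under all 12 alternatives, with changes of 0.88 to 1.24, 0.80 to 1.00 and 0.62 to 0.91.

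The other calls were smaller. Sftpb rose by 0.34 (SE 0.0806, edgeR adjusted p 0.0019), which was lost without the male room air library of day 21 (0.28, edgeR adjusted p 0.103) and in the authors' type 2 classes alone (0.40, edgeR adjusted p 0.129). Over its alternatives the adjusted p ran from 3.99e-06 to 0.129. Sftpd rose by 0.25 (SE 0.0816, edgeR adjusted p 0.015). Without the male day 1 library its change was 0.18 (edgeR adjusted p 0.0896), without female room air at day 21 it was 0.21 (0.216) and without male room air at day 21 it was 0.30 (0.0864). The call was also lost with doublets left out (0.128), with no filter on low counts (0.0622), with upper-quartile scaling (0.0951) and in the authors' type 2 classes alone (0.45). The call held in 5 of 12 alternatives, with an adjusted p from 0.00201 to 0.45. Lpcat1 fell by 0.21 (SE 0.084, edgeR adjusted p 0.0448), and 3 fits without a library lost that call, with adjusted p of 0.139 (female day 1), 0.227 (female day 21) and 0.185 (male day 21). It was also lost by DESeq2 (0.0883), with no covariate (0.0679) and under a stricter cell filter (0.139), and in the authors' type 2 classes alone the direction turned (0.08, edgeR adjusted p 0.826). The call thus held in 5 of 12 alternatives, with an adjusted p from 0.00241 to 0.826. Abca3 (0.19, edgeR adjusted p 0.0653), Sftpc (0.05, 0.623), Slc34a2 (-0.01, 0.90) and Napsa (-0.12, 0.241) did not pass. Abca3 passed under a stricter cell filter (0.23, edgeR adjusted p 0.0462). Napsa passed with doublets left out (-0.25, edgeR adjusted p 0.0174), with no filter on low counts (-0.20, 0.0438) and with upper-quartile scaling (-0.22, 0.0321). Sftpc passed without the male day 1 library, at 0.12 (edgeR adjusted p 0.00158). The count of 6 was 5 by DESeq2, which called 4597 of the 14067 genes, against 7878 by edgeR. In the authors' type 2 classes alone, where male room air at day 21 held 7 cells, the count was 3.

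**Figure D3:**
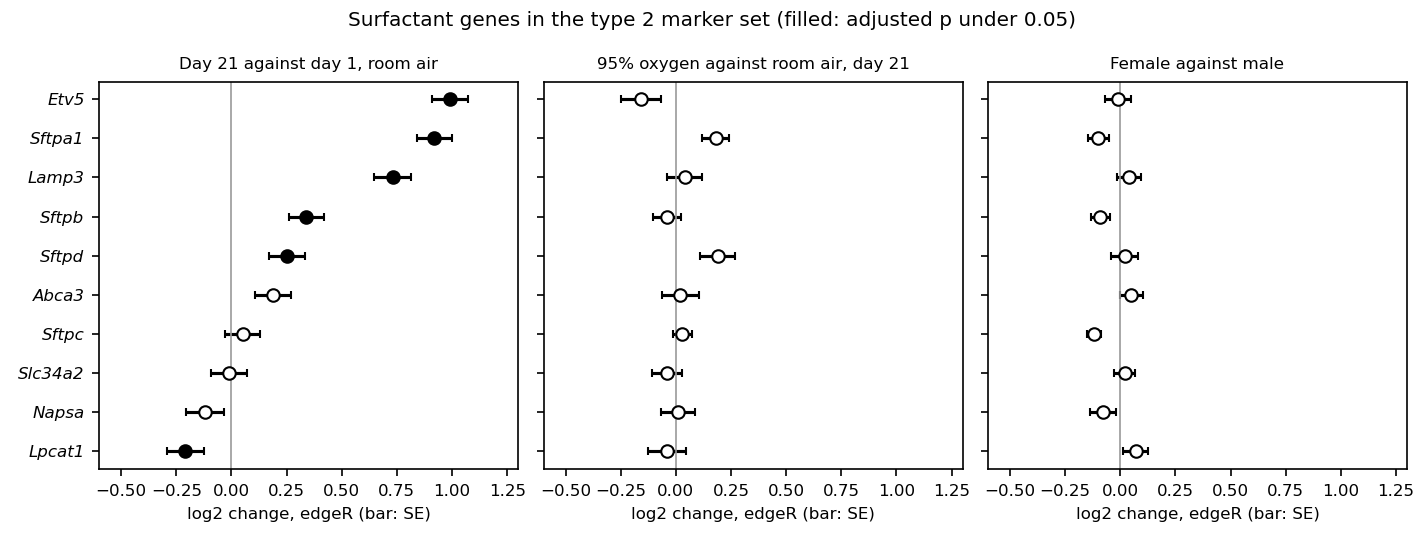
Log2 change of each gene in the type 2 marker set (horizontal axes, with the SE as bars) for day 21 against day 1 in room air, hyperoxia against room air at day 21, and female against male. Filled points passed an adjusted p under 0.05: 6 genes did with age, and 0 with hyperoxia or sex.

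Values that moved with age belong beside these changes. The day 1 counts were made with Cell Ranger 6.0.0 and the day 21 counts with 7.0.1, per the file headers, so age and software cannot be told apart. Over 14059 genes tested, the log2 change with age rose with the gene's span, at a Spearman rho of 0.47 across genes, which are not independent. Genes spanning under 10 kb had a median change of -0.44 and genes over 50 kb a median of 0.63, while for hyperoxia the medians were 0.00 and -0.01. Sftpa1 spans 4.67 kb and rose, against the median of its size. Etv5 (58.4 kb) and Lamp3 (53 kb) are long genes, of which 93% and 93.7% of the span is intron, and their rises of 0.99 and 0.73 stood nearer to the 0.63 of long genes. Abca3 (58.3 kb) and Lpcat1 (49.2 kb) are as long, with changes of 0.19 and -0.21. Among marker lists in the set, the type 1 list stood at 3444 and 3123 CPM at day 1 and 2483 and 2492 in day 21 room air, and the type 2 list at 21109 and 23865, then 40737 and 41321. Most of that difference was Lyz2 (5130 and 5828 CPM, then 21442 and 23176), and Cd74 went from 191 and 247 to 2985 and 2961, while Lyz1 was lower at day 21 (5239 and 7539, then 2180 and 1089), as was S100g (2025 and 1654, then 1414 and 1416). The neutrophil list stood at 1181 and 790 CPM in the same day 1 libraries and at 387 and 35.1 in those of day 21. More barcodes lay close to the cut of the marker rule at day 1 than at day 21, so the choice of barcodes differed with age as well. What part these play in the changes was not tested.

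Genes that serve the same pathways were read from lists in the same fit, where 28.7% of all genes were called higher and 27.3% lower with age. Of 19 genes of surfactant lipid synthesis that could be tested, 10 rose and 5 fell with age, with a median log2 change of 0.38. Acoxl, an acyl-CoA oxidase-like gene, rose by 3.94 (SE 0.0962, edgeR adjusted p 2.44e-14), from 41.5 and 45.7 CPM to 752 and 726, and spans 285 kb. Scd1, a fatty acid desaturase, rose by 1.51 (SE 0.0999, edgeR adjusted p 3.5e-09), from 603 and 698 CPM to 2177 and 1907, and spans 13.4 kb. Acaca, which makes malonyl-CoA, rose by 1.07, and the fatty acid binding protein Fabp5 fell by 1.59, from 2986 and 3074 CPM to 1146 and 1085.

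Of 16 genes of protein processing and the lamellar body, 8 rose and 4 fell (median 0.29). Tmem163 rose by 2.46, Nedd4l, a ubiquitin ligase, by 1.55 and Atp8a1, a lipid flippase, by 1.39. Ctsh, a protease that acts with napsin A on the SP-B precursor, fell by 1.47 (SE 0.0839, edgeR adjusted p 5.78e-10), from 2494 and 2610 CPM to 1014 and 1021. Of 13 lung epithelial transcription factors, 2 rose and 8 fell (median -0.48). Nkx2-1, which drives surfactant protein genes, fell by 0.79 (SE 0.0825, edgeR adjusted p 7.44e-07), from 483 and 500 CPM to 306 and 321. Elf5 fell by 1.68 and Hopx, a type 1 gene, by 2.57, whereas Ehf rose by 3.07, from 6.67 and 6.79 CPM to 69.5 and 56.4. Of 8 genes of FGF signalling, upstream of Etv5, 5 rose and 1 fell (median 0.36), with Spred2 at 2.10, Fgfr2 at 0.51, Spred1 at 0.46 and Spry1 at -0.58. Acoxl, Acaca, Tmem163, Nedd4l, Atp8a1, Spred2, Fgfr2 and Spred1 all span over 50 kb, and Fabp5, Nkx2-1 and Spry1 under 10 kb.

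The day 21 libraries of hyperoxia and room air were then set against each other, to ask whether early oxygen exposure left a mark on the surfactant genes. None of the 10 was called in the type 2 marker set by edgeR with sex as a covariate, where 0.639% of the 12369 genes tested were called (79 genes). DESeq2 also called 0 of the 10, and 2 had an unadjusted edgeR p under 0.05. Their log2 changes lay between -0.16 (Etv5) and 0.19 (Sftpd), with a median of 0.02 against -0.01 for all genes. SP-A and SP-D, the collectins, showed the largest differences upward. Sftpa1 differed by 0.18 (SE 0.0627, edgeR adjusted p 0.369, from 0.0101 to 1 over the alternatives). Sftpd differed by 0.19 (SE 0.079, edgeR adjusted p 0.492, from 0.136 to 1). Both were higher in both hyperoxia libraries than in both room air libraries, as 15.6% of genes were. Etv5 differed by -0.16 (SE 0.0909, edgeR adjusted p 0.677, from 0.613 to 1) and was lower in both hyperoxia libraries, against 20.9% of genes. Sftpb was counted with it, but by a gap smaller than the printed digits, at 9224 CPM in both female libraries. In the authors' type 2 classes 3 genes (Sftpa1, Sftpd and Napsa) were higher in both hyperoxia libraries, against 17.8% of genes, and Etv5 alone was lower, against 15.9%. Male room air held 7 cells in these classes, which limits those shares too, and in the marker set Napsa overlapped. The endothelial list stood at 130 and 119 CPM after hyperoxia and at 75.2 and 94.7 in room air, the neutrophil list at 146 and 669 against 387 and 35.1, and the migratory dendritic list at 110 and 9.49 against 2.37 and 7.82, with female hyperoxia apart. Their part in these values was not tested. The adjusted p of 0.0101 for Sftpa1 came without a filter on low counts and was the 1 setting at which it passed. None of the 19, 16, 13, 8 and 11 tested genes of the lists of lipid synthesis, protein processing, transcription factors, FGF signalling, and uptake and clearance was called.

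Between the sexes, 0 of the 10 genes were called in the set by edgeR or by DESeq2, against 0.0486% of 12349 genes, and 1 had an unadjusted p under 0.05. The log2 changes of female against male lay between -0.12 and 0.07. Sftpc was lowest, at -0.12 (SE 0.0309, edgeR adjusted p 0.716, unadjusted 0.00309), with females below males at day 1 (163778 against 174472 CPM) and after hyperoxia (187102 against 202768), and level in day 21 room air (192956 against 193134). Xist was found in 65.9% of the set in the female hyperoxia library, which enters both this comparison and the next, and without that library the sex comparison also called 0 of the 10. The sex difference after hyperoxia against that in room air was tested as an interaction. It was called for 0 of the 10 genes in the set by edgeR and by DESeq2, with 0 at an unadjusted p under 0.05, against 0.0545% of 12849 genes, and lay between -0.27 (Sftpd, SE 0.12) and 0.12 (Lamp3, SE 0.13).

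Within the type 2 marker set the genes did not vary as 1 block from cell to cell. Over 172 to 1540 barcodes per library, with doublets and barcodes of few UMIs left out, correlations of log levels across cells had a median between 0.06 and 0.19 over the 45 gene pairs. Sftpa1 and Sftpd, the neighbours on chromosome 14, had the highest, with a median of 0.52 over the libraries (0.27 to 0.62). Abca3 and Slc34a2 followed at 0.44 (0.32 to 0.51), Sftpc and Napsa at 0.38 and Lamp3 and Slc34a2 at 0.36. The lowest were Sftpa1 with Abca3, at a median of -0.27 (-0.39 to 0.02), and Sftpd with Abca3 at -0.26. With Lamp3 and Lpcat1 both collectins lay between -0.08 and 0.00, and Sftpc lay between -0.18 and -0.10 with Abca3, Lpcat1, Slc34a2 and Lamp3. Cells of 1 library share its depth and free RNA, so these are descriptions. Levels are shares of a cell's UMIs, of which Sftpc takes a large part, and some genes have few UMIs per cell. How far this lowers the correlations was not tested.

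Over 112 sums of a class in a library (classes of 50 or more cells), Sftpa1, Sftpb, Slc34a2, Lamp3 and Sftpd followed Sftpc at Pearson r of 0.96 to 0.98, Lpcat1 at 0.79, Etv5 at 0.77, Abca3 at 0.68 and Napsa at 0.42. The genes most like the 10 in mean correlation were Cxcl15 and Atp6v1c2 (0.85 each), Hc, Spink5 and Pla2g1b (0.84 each). The sums share libraries, and their free RNA.

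**Figure D4:**
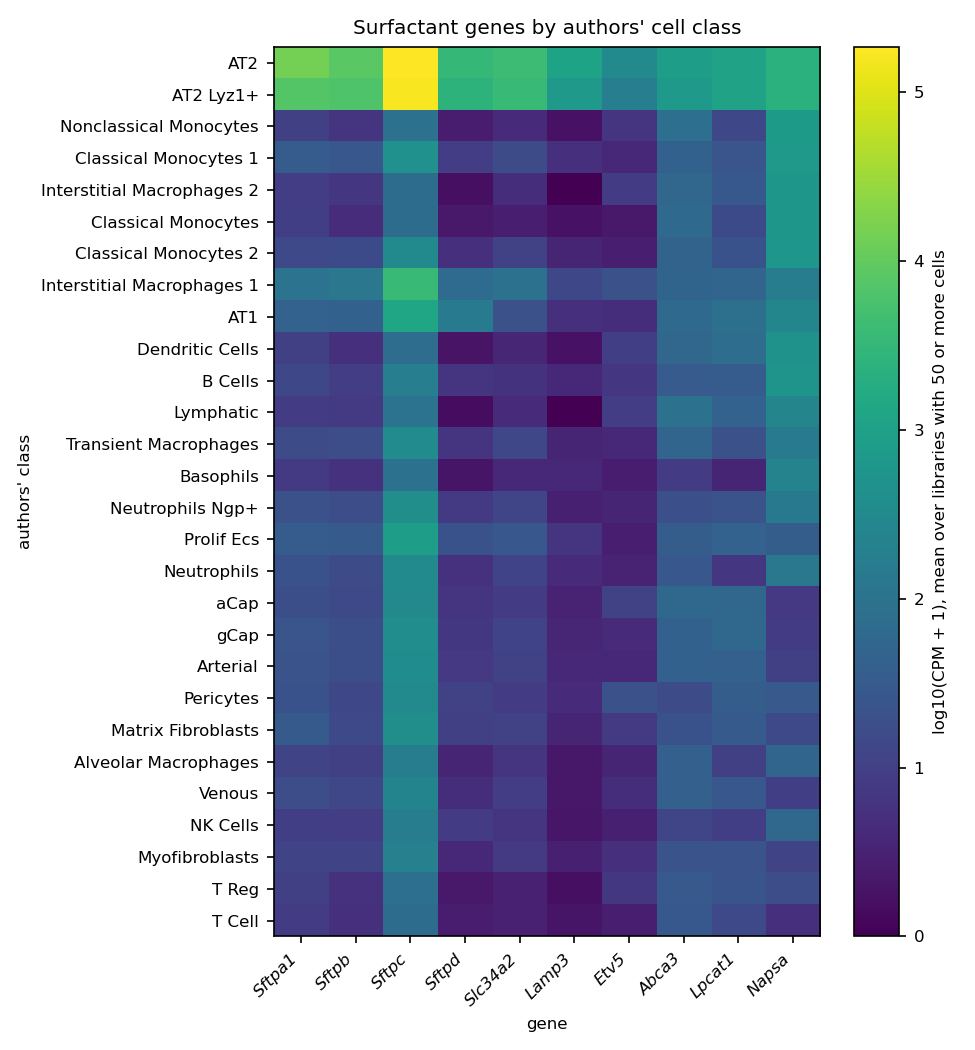
Level of each gene (columns) in 28 authors' classes (rows) as log10(CPM + 1), averaged over the libraries with 50 or more cells of the class. The type 2 classes lead for every gene, and Napsa stays high in monocytes, Interstitial Macrophages 2, dendritic cells and B cells, where Sftpb, Sftpd and Lamp3 are low.

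Outside type 2 cells, surfactant transcripts were counted in every class. Sftpc was found in endothelium, blood cells and fibroblasts at a median of 426 and 502 CPM over non-epithelial classes at day 1, 97.7 and 75.3 in day 21 room air, and 88.3 and 136 after hyperoxia. The whole libraries held 37212 and 57212 CPM of Sftpc at day 1, 11126 and 9073 in day 21 room air, and 10628 and 12882 after hyperoxia. In droplets, RNA freed from lysed cells enters every droplet and keeps the ratios it has in its source. For each class, the UMIs expected from free RNA were therefore computed from its Sftpc UMIs and a ratio of each gene to Sftpc. That ratio came from the authors' type 2 classes of the same library, not from the marker set. In male room air at day 21 it rests on 7 cells, with Lpcat1 at 1442 CPM against 1072 in the marker set. In the female day 1 library 32.8% of the cells it rests on were called doublets. Free RNA of other cells, such as monocytes for Napsa, is not in that expectation. A value above it can be expression in the class or such free RNA, and the values do not tell these apart.

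**Figure D5:**
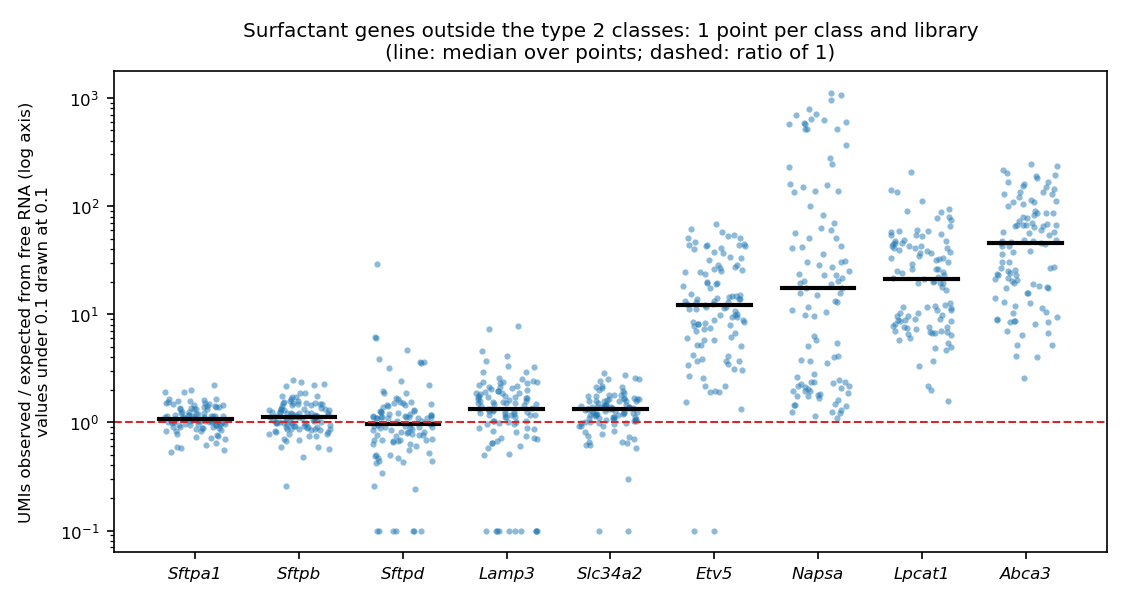
Observed UMIs of each gene divided by those expected from free RNA of type 2 cells (vertical axis, log scale), 1 point per class outside the type 2 classes and library, with the median as a black line and a dashed line at 1. Sftpa1, Sftpb, Sftpd, Lamp3 and Slc34a2 have medians of 0.958 to 1.34, and Etv5, Napsa, Lpcat1 and Abca3 medians of 12.1 to 45.1; 21 of the points lie under 0.1 and are drawn there.

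The genes divided into 2 groups. Sftpa1 (median ratio 1.07 over non-epithelial classes and libraries), Sftpb (1.12), Sftpd (0.944), Slc34a2 (1.32) and Lamp3 (1.34) were near the level of free RNA in the median. In 0 of 25 classes did any of them exceed 2 times the expectation (exact 95% Poisson lower bound over 2) in every library. Single libraries reached more, up to 7.72 for Lamp3 (4 UMIs in basophils of female day 21 room air) and 4.69 for Sftpd (27 UMIs in natural killer cells of the female day 1 library). Averaged over the libraries with 50 or more cells of a class, they were highest, as was Sftpc, in Interstitial Macrophages 1 and Prolif Ecs among non-epithelial classes, but both reached 50 cells at day 1 alone, where Sftpc was higher in the median class too. At day 21 the highest class for Sftpc was matrix fibroblasts in both hyperoxia libraries (314 and 794 CPM), gCap in female room air (279) and arterial endothelium in male room air (256). Abca3 was above it in 23 of 25 classes, Lpcat1 in 21, Napsa in 16 and Etv5 in 12. These intervals cover counting error only. In the male day 1 library, Interstitial Macrophages 1 held 6510 CPM of Sftpc, against 436 in the female one. Of its 9953 Sftpc UMIs, 91.8% lay in 3 of 139 cells, 2 of them called doublets.

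Of the genes above the expectation, Napsa had the highest levels beyond type 2 cells. It stood at 699 and 756 CPM in nonclassical monocytes in female and male hyperoxia and at 728 and 791 in day 21 room air, where free RNA of type 2 cells would give at most 1.45. The type 2 marker set held 2.98 to 3.39 times as much as the highest other class. Classical Monocytes 1 held 694 and 701 CPM, Interstitial Macrophages 2 held 520 to 736, classical monocytes 576 to 643, dendritic cells 481 to 560 and B cells 383 to 645. Neutrophils held 182 and 216 CPM at day 1 and 83.4 to 101 at day 21. The type 2 classes held 51.6% and 80.7% of the Napsa UMIs of classed cells at day 1, 28.5% and 2.32% in day 21 room air, and 19.1% and 31.1% after hyperoxia. The value of 2.32% is from the library with 7 classed type 2 cells and 182 of the marker set without a class. In lymphatic endothelium Napsa was 247 and 240 CPM after hyperoxia and 9.62 and 39.4 in room air, where the class had 23 and 36 cells, too few to test.

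Abca3 was spread widely at a low level, from 4.47 CPM in basophils of female room air at day 21 to 94.7 in lymphatic endothelium of female hyperoxia. Nonclassical monocytes held 75.5 to 86.7 CPM, classical monocytes 56.1 to 65.4 and alveolar macrophages 28.4 to 49.3, where free RNA would give at most 1.32. Lpcat1, which also serves lipid remodelling in other cells, had its highest means among non-epithelial classes in dendritic cells (65.5 to 82.3 CPM) and capillary endothelium, with 37.4 to 70.3 in general capillaries (gCap) and 30.9 to 67.2 in aerocytes (aCap). Etv5 stood at 13.8 to 25.5 CPM in pericytes, against at most 0.685 expected, and at 5.33 to 13.5 in aCap. In Interstitial Macrophages 1 it stood at 19.4 and 19.0 CPM in the female and male day 1 libraries, against 0.472 and 7.13 expected.

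In type 1 cells, which line most of the alveolar surface, the groups were divided otherwise. At day 1 Sftpa1 (47.7 and 60.0 CPM), Sftpb (45.9 and 72.4), Lamp3 (4.58 and 5.91) and Slc34a2 (22.9 and 29.7) lay at 0.596 to 0.867 of the expectation from Sftpc. Sftpc itself stood at 1505 and 2154 CPM in this class, above the medians of 426 and 502 over non-epithelial classes, and unevenly: the median type 1 cell held 390 and 602 CPM and the 90th percentile 1863 and 2255. Whether that Sftpc is free RNA was not tested. Sftpd lay above it, at 146 and 179 CPM, which is 6.05 (5.85 to 6.26) and 6.12 (5.90 to 6.34) times the expectation. Napsa stood at 359 and 346 CPM, 15.8 and 12.9 times the expectation, and Abca3 at 57.8 and 52.9. Lpcat1 stood at 89.3 and 85.5. The type 1 marker list stood at 25008 and 24401 CPM in this class, the mesothelial list at 964 and 858, the ciliated list at 548 and 506 and the club list at 489 and 550, and their part in the Sftpd and Napsa counts was not tested. At day 21 the class had 14 to 57 cells. Sftpd then stood at 117 CPM in female and 100 in male hyperoxia, and at 38.4 and 5.28 (1 UMI) in female and male room air. Napsa stood at 92.6, 86.7, 34.4 and 31.7 CPM in the same order. The ciliated list stood there at 1661, 1367, 2981 and 502 CPM and the club list at 687, 580, 2572 and 37.0, and their part in these values was not tested. The class had too few cells at day 21 to be tested.

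Lamp3 is also known as a marker of mature dendritic cells. Barcodes outside type 2 cells with Ccr7, Fscn1 and Ccl22 numbered 33 and 31 after hyperoxia, 23 and 21 in day 21 room air, and 3 and 4 at day 1. They held 1 and 3 Lamp3 UMIs after hyperoxia, against 0.422 and 0.421 expected from free RNA, and 0 in male room air. In female day 21 room air 29 UMIs lay in 2 barcodes, where 24.3 were expected, and in the male day 1 library 21 lay in 1 barcode, where 19 were expected. Outside those 3 barcodes the counts were too few to set a Lamp3 level in these cells.

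Age was then compared outside type 2 cells, in the 10 classes with 50 or more cells in each of the 4 room air libraries. Of 86 pairs of a surfactant gene and a class, edgeR called 64, 9 higher and 55 lower at day 21, and DESeq2 called 38. Of all pairs of a gene and a class, edgeR called 54.3%, 28.6% higher and 25.7% lower. The share that DESeq2 called of all pairs is not given, so its count of 38 has no background beside it. Sftpc was lower at day 21 in all 10 classes tested, Slc34a2 in 9 of 9, Sftpd in 8 of 8, Sftpb in 8 of 10, Sftpa1 in 6 of 10 and Lamp3 in 4 of 4, and none of them was higher in any. Only pairs that passed the filter on low counts were tested, and a gene could pass it by its counts in the newborn libraries. In the hyperoxia comparison, which used day 21 libraries alone, Sftpd was tested in 5 of 14 classes and Lamp3 in 4. How far this choice of pairs set the counts of falls was not tested. In gCap Sftpc fell by 1.74 in log2 units (edgeR adjusted p 3.18e-15), from 592 and 850 CPM to 279 and 190. A change of free RNA and of any expression in these classes cannot be told apart for these 6 genes.

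Abca3 was called higher at day 21 in 6 of 10 classes and lower in neutrophils (by 0.72, edgeR adjusted p 0.000185, lost by DESeq2 at 0.0731). Lpcat1 was called higher in 2 of 10 and lower in 2, and Etv5 higher in 1 of 5, beside the 28.6% of all pairs called higher. In myofibroblasts Abca3 rose by 1.72 (edgeR adjusted p 0.000426), from 7.94 and 7.75 CPM to 28.2 and 26.7, and this call held under all 10 alternatives. It rose by 0.57 in aCap (edgeR adjusted p 0.0031), from 43.1 and 39.1 CPM to 67.4 and 62.0. In gCap it rose by 0.45 (edgeR adjusted p 0.00297). Its rises in venous (0.81, edgeR adjusted p 0.0192) and arterial endothelium (0.56, 0.0144) and in matrix fibroblasts (1.13, 0.0168) each failed by DESeq2, as did those in aCap and gCap. Without the male day 1 library none of these 5 passed (edgeR adjusted p 0.0593 to 0.267). Without female room air at day 21, gCap (0.106), arterial (0.0544), venous (0.203) and matrix fibroblasts (0.123) did not, nor did arterial without male room air at day 21 (0.0723). With upper-quartile scaling gCap (0.0504), arterial (0.0565) and venous (0.0545) did not pass, nor did venous with no filter on low counts (0.0562).

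Lpcat1 rose by 0.65 in gCap (edgeR adjusted p 2.06e-05), from 38.1 and 37.4 CPM to 70.3 and 59.0, under all 10 alternatives. In aCap it rose by 0.71 (edgeR adjusted p 0.000209), from 41.0 and 30.9 CPM to 67.2 and 57.8, and the call was lost without the male day 1 library (edgeR adjusted p 0.0516) and by DESeq2 (0.0502). In alveolar macrophages it fell by 1.94 (edgeR adjusted p 1.7e-05), from 17.0 and 11.2 CPM to 4.82 and 4.45, under all 10 alternatives. In neutrophils it fell by 1.04 (edgeR adjusted p 0.00351), and this did not pass without male room air at day 21 (0.0633) or by DESeq2 (0.191). Etv5 rose by 0.86 in aCap (edgeR adjusted p 0.0126), from 7.36 and 5.33 CPM to 13.5 and 10.9. It did not pass by DESeq2 (0.309), without the male day 1 library (0.108) or without female room air at day 21 (0.182). Napsa fell in 7 of 10 classes. In neutrophils it fell by 1.33 (edgeR adjusted p 2.14e-15), from 182 and 216 CPM to 83.4 and 88.8, and in alveolar macrophages by 1.95 (edgeR adjusted p 5.71e-10), from 85.5 and 93.6 CPM to 29.9 and 29.1. In natural killer cells it fell by 1.45 (edgeR adjusted p 6.98e-05), in aCap by 2.05, in gCap by 1.97 and in arterial endothelium by 1.55, the last not by DESeq2 (adjusted p 0.0654). The seventh call, in matrix fibroblasts, was a fall of 1.24 (edgeR adjusted p 0.0369) that failed without the male day 1 library (0.538) and without the female (0.0658) or male (0.153) room air library of day 21, by DESeq2 (0.399) and with no covariate (0.079), and held in 4 of 9 alternatives. B cells, among the highest classes of Napsa, held 537 and 502 CPM at day 1 and 532 and 645 at day 21, a log2 change of 0.00. In aCap, gCap, arterial endothelium and matrix fibroblasts Napsa did not exceed 2 times the free RNA expectation in every library. Sftpc fell in these classes as well, by 2.28, 1.74, 1.69 and 1.43. Lpcat1 did not exceed it in neutrophils, where Sftpc fell by 2.43. For these falls a change of free RNA and of expression cannot be told apart. Napsa exceeded 2 times the expectation in alveolar macrophages, neutrophils and natural killer cells, and Lpcat1 in alveolar macrophages. Sftpc fell in these classes too, by 2.08, 2.43 and 2.73. Free RNA of other cells is not in that expectation, so the values do not tell free RNA and expression apart there either. Software and gene span bear on these ages as they do on type 2 cells. Abca3 spans 58.3 kb, Lpcat1 49.2 and Napsa 14.5.

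With every classed cell summed, the 10 genes made up 1.59% and 6.14% of UMIs at day 1, 0.819% and 0.0904% in day 21 room air, and 0.349% and 0.487% after hyperoxia. There edgeR called 0 of the 10 with age and DESeq2 2, with 1 at an unadjusted p under 0.05 (Napsa, 0.0362), although 52.7% of all genes were called. The log2 changes ran from -4.15 (Sftpc) to -1.52 (Abca3). The sexes differed widely, from 3.99% to 14.6% type 2 cells at day 1. These sums leave out the type 2 barcodes without a class: over whole libraries, Sftpc stood at 11126 CPM in female and 9073 in male day 21 room air. The marker set went from 8.93% and 13.3% of barcodes to 2.32% and 1.79% between the ages, while Sftpc within it was 1.14 times as high.

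Hyperoxia was also compared in the other classes. Of 105 pairs in 14 classes edgeR called 0 and DESeq2 0, with 11 at an unadjusted p under 0.05, against 2.28% of all pairs of a gene and a class. Leaving out 1 library, which leaves a group with 1 sample, gave some calls. The share of all pairs called in those fits is not given, so they have no background beside them. Between the sexes edgeR called 0 of 78 pairs and DESeq2 1, with 11 at an unadjusted p under 0.05, against 0.0948% of all pairs. Leaving out a day 21 library gave some calls here as well, again with no share over all pairs beside them. The interaction of sex and hyperoxia was called for 1 of 87 pairs, Sftpc in matrix fibroblasts, against 0.428% of all pairs. There Sftpc stood at 314 CPM in female and 794 in male hyperoxia, at 270 and 121 in day 21 room air, and at 426 and 485 at day 1. The fit over these 6 libraries, which takes the room air sex difference over both ages, gave an interaction of -1.72 (SE 0.317, edgeR adjusted p 0.000783). It was not called by DESeq2 (adjusted p 1), under a stricter cell filter (0.242) or with upper-quartile scaling (0.0791), and Sftpa1 stood at 29.3, 63.2, 28.5 and 13.1 CPM in the same 4 libraries of day 21.

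Surfactant is cleared by alveolar macrophages, so genes of uptake and clearance were read there. After hyperoxia 3 of 11 fell and 0 rose (median -0.27 against -0.01 for all 11678 genes, of which 10.9% were called). These were Fabp4, a lipid chaperone, by 0.69 (edgeR adjusted p 0.000832), from 89.0 and 66.0 CPM to 45.3 and 51.6, Car4, a carbonic anhydrase, by 0.59 (edgeR adjusted p 0.00218), and Csf2ra, the GM-CSF receptor chain, by 0.40 (edgeR adjusted p 0.00865), from 171 and 156 CPM to 132 and 124. In the same class Adgrf5, a receptor of endothelium and type 2 cells, rose by 2.82 after hyperoxia, from 15.3 and 18.9 CPM to 141 and 109, and Nfib by 3.14, so transcripts typical of other lung cells moved there too, and their part in the 3 falls was not tested. With age 5 of the 11 rose and 3 fell, where 53.8% of genes were called. Mertk rose by 3.22, Pparg by 2.21 and Cd36 by 2.09, each spanning over 100 kb, and Fabp4, of 4.49 kb, fell by 4.64.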

How the data were processed

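Per the file headers, the deposited matrices hold raw UMI counts per gene and barcode that the authors made with Cell Ranger 6.0.0 (day 1) and 7.0.1 (day 21). The submitters' processing notes name Cell Ranger 6.0.0, Seurat 4.1.1 and build mm10. Whether intronic reads were counted is not given in the sources used here. Cell classes are the authors' deposited annotation. The genes and lists were chosen with earlier results of these data known.

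Counts were summed per class and library and tested with edgeR 4.0.16 (quasi-likelihood, TMM, filterByExpr, Benjamini-Hochberg over all genes of a class, call at 0.05) in classes with 50 or more cells in every library compared. Sex was a covariate for hyperoxia and age, and condition for sex. Age used the 4 room air libraries, hyperoxia the 4 of day 21, and sex and interaction 6 libraries. Fits without 1 of 4 libraries drop the covariate, and the lone library is assumed to vary like the others. The fits were repeated with DESeq2 1.42.0, with upper-quartile scaling, without the covariate, with no filter on low counts, a stricter cell filter (1000 or more genes, at most 10% mitochondrial UMIs), Scrublet doublets left out (scanpy 1.11.5, kept otherwise) and each library left out. The code was tested on simulated data.

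The type 2 marker set, added after the data were seen, takes barcodes of the type 2 classes or without a class. They had 0.5% or more of UMIs in the 9 markers, 4 or more of these detected, UMIs of 9 endothelial, immune and mesenchymal genes at most 10% of the marker UMIs, 1000 or more genes and at most 10% mitochondrial UMIs. Leaving Sftpc out of the totals and the authors' type 2 classes alone were also added then. The set already met the limits of the stricter cell filter. For the set that filter instead lowered the mitochondrial limit and capped the UMIs per barcode.

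All 10 genes are described in type 2 cells. Elsewhere each is described in its 3 highest classes and where it was called. Some genes are also given in classes outside that rule, among them Napsa in lymphatic endothelium. From each list up to 4 called genes are named by adjusted p, and the 5 genes most like the 10 by mean Pearson correlation. Intervals cover counting error only.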

Additional observations from a re-analysis of the deposited data

Results flagged for a closer look

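Sftpc in matrix fibroblasts differed between the sexes after hyperoxia against room air by -1.72 on the log2 scale, by a test of that difference itself, and the class held 58 to 128 cells in each library of day 21. It was not called by DESeq2 (adjusted p 1), under the stricter cell filter (0.242) or with upper-quartile scaling (0.0791), and Sftpc outside type 2 cells is the gene by which free RNA was measured. Barcodes to which the authors gave no class passed the rule on type 2 markers in every library: 994 in the female and 372 in the male library of day 1, 126 and 182 in day 21 room air, then 189 and 230 in hyperoxia. No class comparison includes them, and the type 2 marker set does.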

How the results depend on the processing

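With 1 pool per combination, leaving out a library leaves a group with 1 sample, and age and software version cannot be told apart. In the classes, the hyperoxia count of 0 was 1 with doublets left out, 3 with no filter on low counts, 1 with upper-quartile scaling and 1 to 3 without 1 library. The age count of 64 was 38 by DESeq2. The sex count of 0 was 1 by DESeq2, 2 with doublets left out, 5 with no filter, 1 under the stricter cell filter and 3 to 5 without a day 21 library. The interaction count of 1 was 0 by DESeq2, the stricter cell filter and upper-quartile scaling. In the type 2 marker set, the hyperoxia and sex counts of 0 were each 1 with no filter, the sex count was 0 to 1 without 1 library, and the age count of 6 was 3 in the authors' classes alone and 3 to 6 without 1 library. The cause was not tested. For the classes, the shares of all pairs called under these alternatives are not given, so the counts cannot be set against a background. With age, Sftpc (0.05) was -0.07 with doublets left out, -0.02 with no filter, -0.05 with upper-quartile scaling and -0.04 to 0.12 without 1 library, while Slc34a2 (-0.01) and Lpcat1 (-0.21) were each 0.08 in the authors' classes. Of the single-gene values under alternatives, 296 kept direction and stayed called or stayed uncalled, 51 lost a call, 6 gained one and 6 changed sign. Of the counts and shares under alternatives, 71 were marked the same and 37 moved. Over every barcode the type 2 class shares were 3.08% and 11.4% (day 1), 1.21% (female room air, day 21) and 0.49% and 0.643% (hyperoxia), and female day 1 was 3.04% without doublets. The marker set was 8.93%, 13.3%, 2.32%, 1.79% (male room air), 2.04% and 2.37% of barcodes in that order.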
